A study of Mus musculus with 7 samples.

Results

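Blood cells made up 824 of the 52802 cells kept from unmodified mouse hearts, 495 of 27445 in the CD1 strain and 329 of 25357 in the C57BL/6 strain. They were taken as the cells that the authors labelled blood in their final annotation. A further 79 C57BL/6 cells marked for exclusion by the authors were left out, and 0 of these carried the blood label. The paper also describes removing a cluster of blood cells when that group was clustered again by itself. Such cells are not counted here, so the blood counts and shares cover only the cells that remained. In each strain all blood cells came from a single cluster of the authors' clustering. The tables used here list UMIs, detected genes and quality values of each cell but no values of single genes, so the label could not be checked against its markers Hba-a1, an alpha globin gene, and Alas2, the erythroid enzyme that starts heme synthesis.

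Blood in the embryonic heart is dominated by erythroid cells. Primitive erythroid cells arise in the yolk sac, enter the circulation when the heart starts to beat and mature there as a cohort, filling with globin mRNA while the rest of the transcriptome, the mitochondria and the ribosomes are lost. Definitive red cells from the fetal liver follow and complete most of this maturation before they reach the circulation.

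CD1 hearts, from an outbred strain, were collected at 18 stages (E9.5 to P9), and C57BL/6 hearts, from an inbred strain, at 17 stages (E10.5 to P9). Hearts of a stage were pooled, cut into the left and right atria (LA, RA), the left ventricle with the septum and the atrioventricular canal (LV) and the right ventricle (RV), and each zone was tagged with its own MULTI-seq lipid barcode before the zones and stages were mixed and run together. This gave 72 CD1 samples and 68 C57BL/6 samples of 1 stage and 1 zone, holding from 12 to 2091 and from 9 to 5416 cells. Each sample is a single pool of hearts, apart from CD1 P1 and P2, where cells of different experiments are joined. Within an experiment the zones of a stage come from the same hearts, so that the spread between zones is not a spread between animals. The CD1 cells came from 3 experiments (E9.5 to P3 in 5 wells, E18 and P1 in 1 well, P2 to P9 in 1 well) and the C57BL/6 cells from 2 (E10.5 to P4 in 4 wells, P5 to P9 in 1 well), so that strain and experiment cannot be told apart. Median UMIs per cell were 15715 in CD1 and 12459 in C57BL/6, and the well medians ran from 13366 to 20279 and from 9176 to 15433. No barcode was found in the blood cells of more than 1 well, although 6 of the 824 blood cells shared a barcode with some cell of another well.

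Blood cells were concentrated in the earliest hearts. In CD1 the mean blood share of the 4 zones was 21.5 ± 20.1% (SD over zones) at E9.5, 41.1 ± 38.8% at E10.5 and 18.01 ± 28.3% at E11.5, and then 0.883 ± 0.571% at E12.5. In C57BL/6 it was 29.5 ± 11.9% at E10.5, 45.5 ± 33.0% at E11.5, 11.4 ± 19.6% at E12.5 and 1.05 ± 1.49% at E13.5. Counted over the pooled cells of a stage, the CD1 shares were 10.03% at E9.5, 19.3% at E10.5, 4.90% at E11.5 and 0.555% at E12.5, and the C57BL/6 shares 21.97%, 43.5%, 3.50% and 0.246% from E10.5 to E13.5. The drop of the mean of zones to about 1% therefore fell between E11.5 and E12.5 in CD1 and between E12.5 and E13.5 in C57BL/6. The C57BL/6 mean at E12.5 was carried by the RA (22 of 54 cells, 40.7%), against 2.77% in the LV, 1.98% in the RV and 0 in the LA. Counted over cells, the C57BL/6 share fell from 43.5% to 3.50% between E11.5 and E12.5, the interval in which the CD1 share fell from 4.90% to 0.555%. Counted over cells, the stages to E11.5 held 366 of the 495 CD1 blood cells (73.9%) but 14.9% of all CD1 cells. The stages to E12.5 held 296 of the 329 C57BL/6 blood cells (90.0%) but 9.92% of all C57BL/6 cells.

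**Figure D1:**
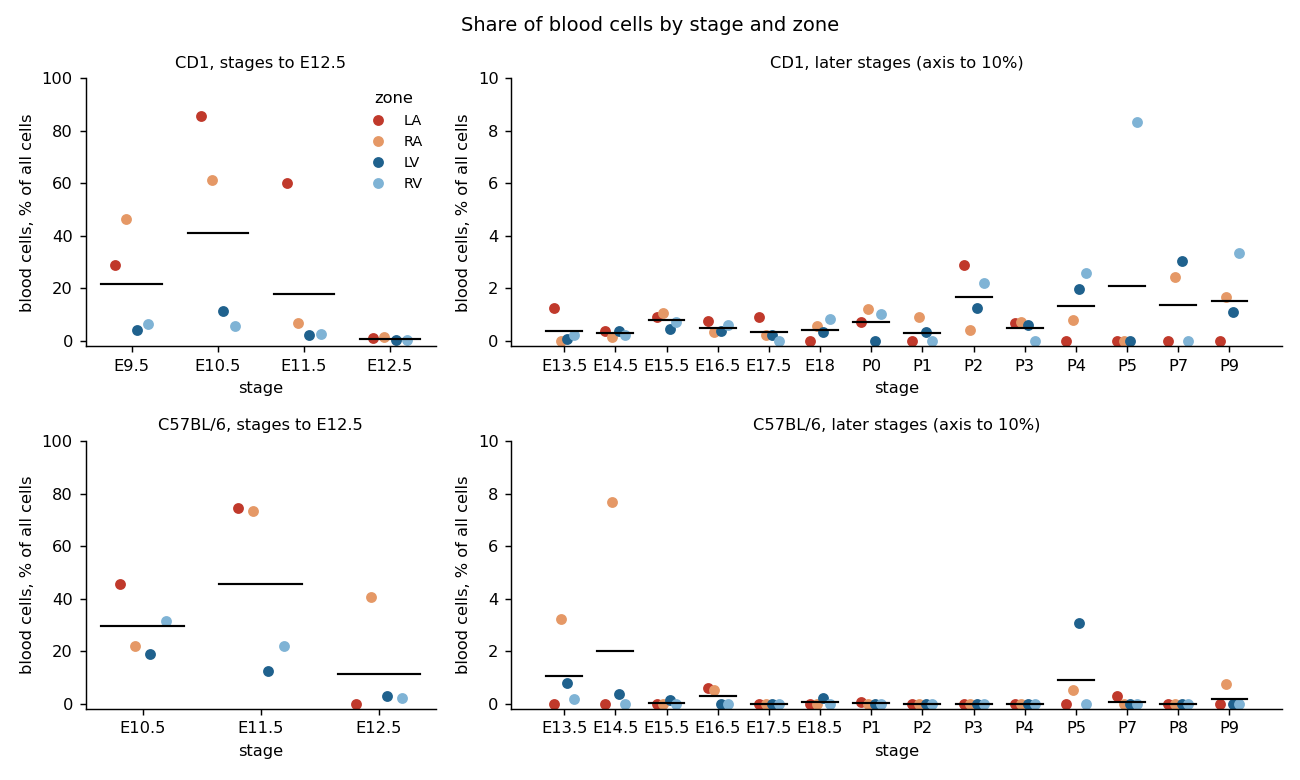
Blood cells as percent of all cells (vertical axes, to 100% on the left and to 10% on the right) at each stage in CD1 and C57BL/6 hearts. Points are the 4 zones (LA, RA, LV, RV) and black lines their mean. Points reach 85.7% in the CD1 E10.5 left atrium and stay under 10% in each zone from E13.5 on.

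The difference between early and postnatal hearts was larger than the spread between stages in both strains. The mean over the 4 CD1 stages to E12.5 was 20.4 ± 16.49% (SD over stages) and that over the 8 postnatal stages 1.19 ± 0.618%, 19.2 points apart (exact permutation of stages, p = 0.0121, adjusted p = 0.0182 over the 3 early against postnatal contrasts that could be fitted). Without the CD1 experiment of P2 to P9, which leaves 4 postnatal stages, the difference was 19.2 points with an adjusted p of 0.0857 (exact permutation). The size in CD1 depended on the denominator, as each zone counts equally in these means whatever its number of cells. It was 7.88 points with the cells of all zones pooled (exact permutation, adjusted p = 0.0212) and 37.1 points as a share of the cells other than cardiomyocytes (exact permutation, adjusted p = 0.00606). In C57BL/6 the means were 28.8 ± 17.1% over 3 stages to E12.5 and 0.146 ± 0.309% over 8 postnatal stages, a difference of 28.6 points (exact permutation p = 0.00606, the smallest that this design can give, adjusted p = 0.0182).

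A steady trend with stage was a weaker description. Across the 18 CD1 stages in order, Spearman's rho of the blood share was -0.0836 (permutation p = 0.741, adjusted p = 0.960 over the 8 relations with stage that were computed), whereas Pearson's r was -0.573 (permutation p = 0.00424, adjusted p = 0.0170). Dropping the pair of stages at the ends of the series left r at -0.517 (permutation p = 0.0163). Across the 17 C57BL/6 stages rho was -0.635 (permutation p = 0.00747, adjusted p = 0.0598), r was -0.613 (permutation p = 3.80e-04, adjusted p = 0.00304) and r after dropping the end stages was -0.535 (permutation p = 4.90e-04). Taken by itself, the E9.5 to P3 experiment gave rho -0.516 (permutation p = 0.0745) with r at -0.660 (permutation p = 0.00587), and the E10.5 to P4 experiment gave rho -0.919 (permutation p = 5.00e-05) with r at -0.684 (permutation p = 9.60e-04). With the E9.5 to P3 experiment left out, rho over the 7 remaining CD1 stages was 0.857 (exact permutation, adjusted p = 0.0595), and with the E10.5 to P4 experiment left out it was -0.400 over 4 C57BL/6 stages. From E12.5 on the CD1 share did not go on falling, and rho over these 15 stages was 0.582 (permutation p = 0.0246, adjusted p = 0.123) and r 0.663 (permutation test, adjusted p = 0.0198). This range was chosen after the values were seen. Its highest mean, 2.08% at P5, rested on 1 blood cell among 12 RV cells, and P4, P7 and P9 held 6, 5 and 5 blood cells. The stages from P4 on came only from the P2 to P9 experiment, so that stage and experiment cannot be told apart there.

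After the early stages more blood cells were found in CD1 than in C57BL/6 when all wells were counted, but not in the least loaded CD1 wells. CD1 hearts from E13.5 on held 119 blood cells among 21566 (0.552%, exact 95% interval 0.457 to 0.660%), and each of their 14 stages held at least 1. C57BL/6 hearts from E13.5 on held 33 among 22842 (0.144%, 0.0995 to 0.203%), and at 5 stages no blood cell was found. At E17.5, the deepest of these with 1781 cells, a count of 0 has an exact 95% upper limit of 0.207%. These intervals cover counting error only. In the postnatal hearts the counts were 62 of 7445 in CD1 (0.833%, 0.639 to 1.07%) and 9 of 9885 in C57BL/6 (0.0910%, 0.0416 to 0.173%). Without the 1 CD1 well aimed at 25k cells, which held more blood cells than the others at these stages, the CD1 counts were 55 of 15312 from E13.5 on (0.359%, 0.271 to 0.467%) and 32 of 5913 after birth (0.541%, 0.370 to 0.763%). The 3 CD1 wells aimed at 5k cells held 3 blood cells among 4755 from E13.5 to P3 (0.0631%, 0.0130 to 0.184%). This share is lower than the 0.144% of C57BL/6, which also covers later stages to P9, but the intervals overlap. The direction of the shares thus depends on the wells counted, and in these wells it rests on 3 cells. Over the 16 stages that both strains have (E18 set against E18.5), the CD1 share was the higher at 12 and the lower at 4, all 4 between E11.5 and E14.5. The mean difference was -1.22 percentage points (exact sign flip test over stages, p = 0.741, adjusted p = 0.750). Without the CD1 experiment of E9.5 to P3 it was 0.931 points over 7 stages, past the threshold (exact sign flip test, adjusted p = 0.0156), and without the C57BL/6 experiment of E10.5 to P4 it was 1.27 points over 3 stages (exact sign flip test, adjusted p = 0.250).

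The early blood shares were highest in atrial samples, with both atria above both ventricles at 4 CD1 stages (E9.5 to E12.5, the last on 10 blood cells) and at E11.5 in C57BL/6. At E10.5 in CD1, blood cells were 66 of 77 cells in the LA (85.7%, exact 95% interval 75.9 to 92.6%) and 30 of 49 in the RA (61.2%, 46.2 to 74.8%), against 49 of 424 in the LV (11.6%, 8.67 to 15.0%) and 17 of 291 in the RV (5.84%, 3.44 to 9.19%). At E9.5 the shares were 28.9% in the LA and 46.6% in the RA, against 4.07% in the LV and 6.50% in the RV. At E11.5 the LA stood apart with 41 of 68 cells (60.3%, 47.7 to 71.97%), while the RA had 6.63%, the LV 2.30% and the RV 2.80%. In C57BL/6 the largest gap was at E11.5, with 74.5% in the LA and 73.3% in the RA against 12.2% in the LV and 21.95% in the RV. At E12.5 the C57BL/6 RA had 22 of 54 cells (40.7%, 27.6 to 55.0%), the LV 2.77% and the RV 1.98%, and none of the 18 LA cells was a blood cell, which allows a share of up to 16.7%. At E10.5 in C57BL/6 the zones overlapped, with 45.5% in the LA (5 of 11, 16.7 to 76.6%), 21.98% in the RA (20 of 91, 13.97 to 31.9%), 19.01% in the LV (73 of 384, 15.2 to 23.3%) and 31.5% in the RV (29 of 92, 22.2 to 42.0%).

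Over all stages the zones could not be separated. Atrial minus ventricular share averaged 6.86 ± 17.8 percentage points (SD over 18 stages) in CD1, where it was above 0 at 11 stages and below 0 at 7 (exact sign flip test p = 0.195, adjusted p = 0.389 over 4 zone contrasts). In C57BL/6 it averaged 5.16 ± 14.1 points over 17 stages, above 0 at 9 stages and below 0 at 3 (exact sign flip test p = 0.0425, adjusted p = 0.170). Without the CD1 experiment of P2 to P9 the CD1 contrast was 9.58 points (exact sign flip test, adjusted p = 0.00391), and without the CD1 experiment of E9.5 to P3 it was -1.41 points (adjusted p = 0.0625). With samples under 50 cells left out the C57BL/6 contrast was -0.0898 points over 8 stages (exact sign flip test, adjusted p = 0.870). Left minus right share averaged 1.42 ± 7.76 points in CD1 (exact sign flip test p = 0.532, adjusted p = 0.532) and -1.32 ± 5.21 points in C57BL/6 (exact sign flip test p = 0.418, adjusted p = 0.532).

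Blood cells carried few genes for their number of UMIs. Their median was 22623 UMIs and 2738 detected genes in CD1 and 14535 UMIs and 1590 genes in C57BL/6, or 114 and 119 genes per 1000 UMIs. The other 8 groups of cells had medians from 213 (ventricular cardiomyocytes, CMs) to 352 (mural cells) genes per 1000 UMIs in CD1, and from 195 (atrial CMs) to 350 (mural cells) in C57BL/6. Because this rate falls with depth, each blood cell was also set against the non-blood cells of its own well with UMIs within 10% of its own, and its detected genes were expressed as a percent of their median. This matched gene ratio could be had for 490 CD1 and 328 C57BL/6 blood cells. Its median was 61.5% in CD1 and 48.1% in C57BL/6, whereas the same ratio for the other groups ran from 94.3% (immune cells) to 109% (epicardial cells) in CD1 and from 93.2% (atrial CMs) to 107% (epicardial cells) in C57BL/6. The other groups are themselves part of the reference cells, which draws their ratios towards the reference, while blood cells are left out of it. Blood cells had the lowest median ratio of the groups with at least 10 cells at all 8 CD1 stages and all 4 C57BL/6 stages where they numbered at least 10 themselves. These are descriptions with no test, since the blood cluster was itself formed from the genes of these cells.

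**Figure D2:**
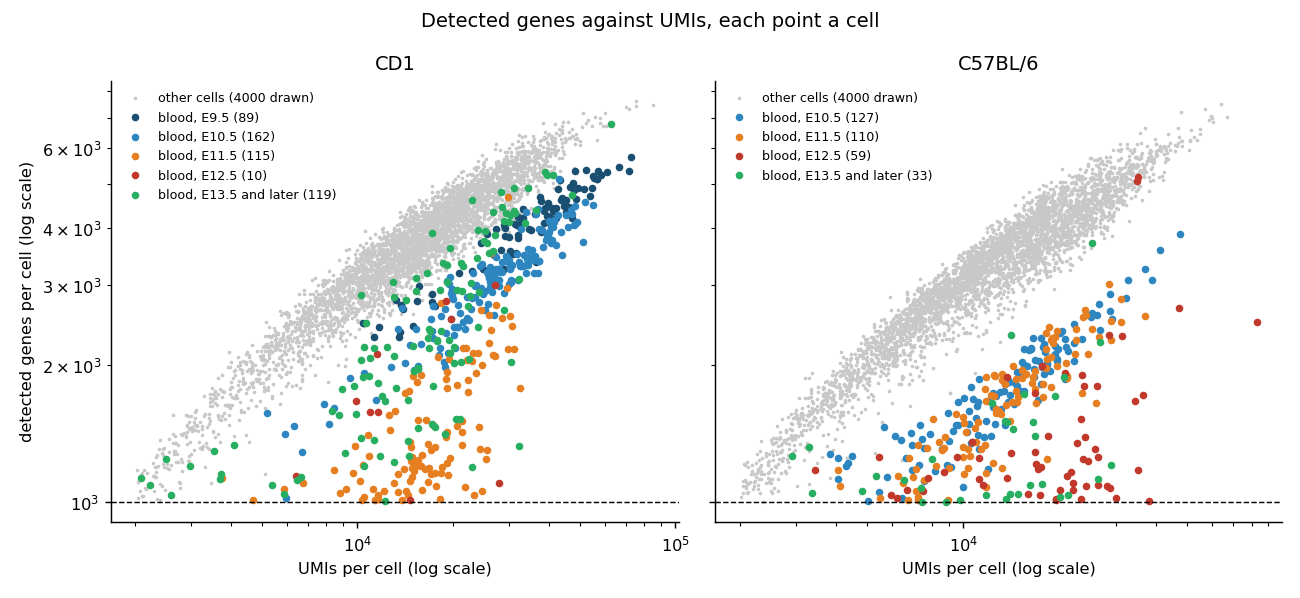
Detected genes against UMIs per cell, both on log scales, in CD1 and C57BL/6. Grey points are 4000 other cells drawn at random in each strain, coloured points the blood cells by stage (number in brackets), and the dashed line the authors' floor of 1000 detected genes. Blood cells lie under the other cells, and the CD1 cells of E11.5 and the C57BL/6 cells of E12.5 reach down to the floor.

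The blood cells of successive early stages differed sharply from each other. In CD1 the median detected genes of a blood cell were 4217 at E9.5, 3129 at E10.5 and 1321 at E11.5, and the median UMIs 37446, 26931 and 17043. The matched gene ratio sets each cell against cells of like depth. Whether the ratio itself still varied with UMIs among blood cells was not tested. Zone medians of the ratio at E9.5 were 74.9% (LA), 73.0% (RA), 72.2% (LV) and 75.9% (RV). At E10.5 they were 63.9%, 61.2%, 61.4% and 63.1% in the same order, and at E11.5 they were 34.3%, 39.6%, 38.8% and 36.2%. The zones of a stage, cut from the same hearts, lay close together, and no zone of a later stage overlapped any zone of an earlier one. The ratio fell by 11.6 points from E9.5 to E10.5 and by 25.2 points from E10.5 to E11.5 (zones as samples, 4 against 4, exact permutation p = 0.0286 for each, the smallest that 4 against 4 can give, adjusted p = 0.0327 over 16 comparisons).

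In the C57BL/6 blood cells the larger fall came from E11.5 to E12.5. Median detected genes were 1756 at E10.5, 1688 at E11.5 and 1210 at E12.5. The zone medians of the matched gene ratio were 54.5% (LA), 50.6% (RA), 51.2% (LV) and 51.8% (RV) at E10.5 and 49.5%, 49.0%, 47.4% and 46.2% at E11.5. At E12.5 they were 32.2% (RA), 43.2% (LV) and 28.9% (RV), with no blood cell in the LA. The fall was 4.01 points from E10.5 to E11.5 and 13.3 points from E11.5 to E12.5 (exact permutation over zones, p = 0.0286 and adjusted p = 0.0327 for each). These steps, and those of the mitochondrial and ribosomal protein percent below, were chosen after their values were seen. Each stage is a single pool of hearts, and zones that share hearts give p-values that are too small for a comparison of animals.

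Mitochondrial UMIs went the same way. The mitochondrial percent is the share of a cell's UMIs from genes of the mitochondrial chromosome, which encode subunits of the respiratory chain and the mitochondrial rRNAs. In CD1 the mean of the zone medians was 3.64 ± 0.329% (SD over 4 zones) at E9.5, 2.44 ± 0.242% at E10.5 and 0.417 ± 0.0784% at E11.5. In C57BL/6 it was 2.21 ± 0.122% at E10.5, 1.59 ± 0.257% at E11.5 and 0.392 ± 0.219% over 3 zones at E12.5. Each of these 4 steps was a fall without overlap between the zones (exact permutation over zones that share hearts, p = 0.0286, adjusted p = 0.0327). Cells under 1% mitochondrial were 0 of 89 at E9.5, 1 of 162 at E10.5 and 109 of 115 at E11.5 in CD1. In C57BL/6 they were 13 of 127 at E10.5, 18 of 110 at E11.5, 45 of 59 at E12.5 and 11 of 15 at E13.5.

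In the other cells of the same hearts the mitochondrial percent was higher at each later CD1 stage, and in C57BL/6 it was lower at E12.5 than at E11.5. Their median mitochondrial percent was 5.23% at E9.5, 6.91% at E10.5 and 8.86% at E11.5 in CD1, and 7.54%, 8.14% and 6.43% at E10.5, E11.5 and E12.5 in C57BL/6. Blood minus other cells, taken zone by zone, went from -1.58 to -3.78 and -8.01 percentage points over the 3 CD1 stages (exact permutation p = 0.0286, adjusted p = 0.0327 for both steps). In C57BL/6 it was -6.38, -6.21 and -5.42 points, and neither step passed the test (exact permutation p = 0.971 and 0.543, adjusted p = 0.971 and 0.579). In the C57BL/6 E10.5 samples the other cells themselves ranged from 4.46% (LA) to 14.8% (RV) between zones.

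The share of UMIs from ribosomal protein genes, the Rpl and Rps families that build the ribosome, fell as well. In CD1 the mean of the zone medians was 18.3 ± 0.617% at E9.5, 15.0 ± 1.09% at E10.5 and 5.42 ± 0.226% at E11.5. In C57BL/6 it was 13.3 ± 0.151%, 11.2 ± 1.04% and 6.05 ± 1.89% at E10.5, E11.5 and E12.5. Each step gave an exact permutation p of 0.0286 and an adjusted p of 0.0327, with zones that share hearts as samples. At E9.5 the CD1 blood cells stood above the other cells (18.53 against 16.7% as medians over cells), and by E11.5 far under them (5.41 against 14.9%). In C57BL/6 the values over cells were 13.4 against 16.3% at E10.5 and 5.30 against 17.2% at E12.5.

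**Figure D3:**
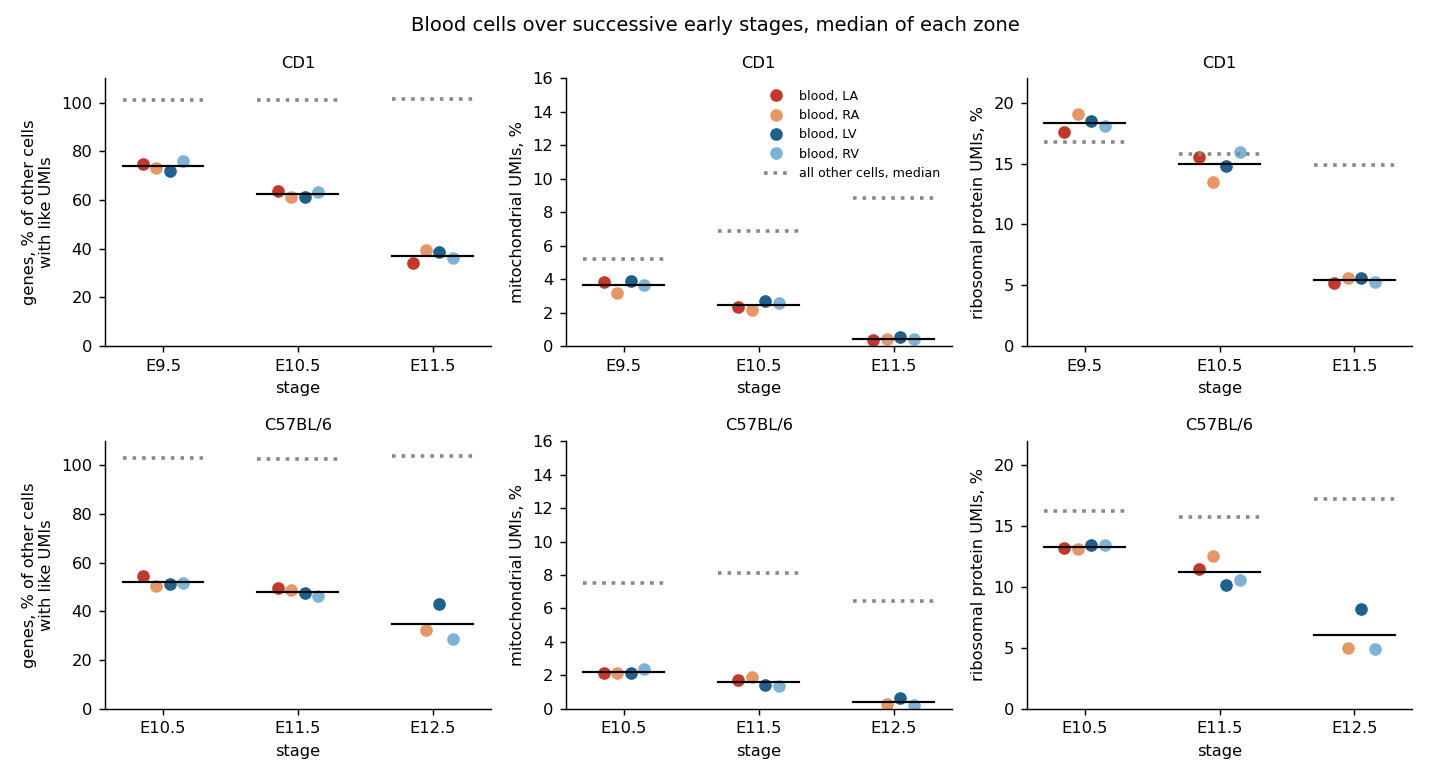
Median matched gene ratio, mitochondrial percent and ribosomal protein percent (vertical axes, each from 0) of the blood cells of each zone at 3 successive stages in CD1 (top) and C57BL/6 (bottom). Coloured points are zones with at least 5 blood cells, black lines their mean, and dotted grey lines the median of all other cells of the stage. The 3 measures drop together at E11.5 in CD1 and at E12.5 in C57BL/6.

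The step from E10.5 to E11.5 differed between the strains. The matched gene ratio changed by -25.2 ± 3.70 points (SD over 4 zones) in CD1 and by -4.01 ± 1.79 points in C57BL/6, a difference of -21.2 points. The mitochondrial percent changed by -2.02 ± 0.202 and -0.617 ± 0.353 points, a difference of -1.40, and the ribosomal protein percent by -9.55 ± 1.29 and -2.12 ± 1.18 points, a difference of -7.43. Each difference gave the smallest p that 4 zones against 4 allow (exact permutation p = 0.0286, adjusted p = 0.0286 over 3 tests). At E11.5 the CD1 blood cells were thus at 36.0% of the genes of matched cells and 0.390% mitochondrial, the C57BL/6 cells at 48.1% and 1.67%, while the C57BL/6 cells reached 32.2% and 0.312% at E12.5. Strain and experiment cannot be told apart here, and each stage is 1 pool of hearts. The p-values take zones of the same hearts as samples, so they do not measure a spread between animals of a strain.

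All stages of an experiment ran in the same wells, so that the steps can be read within a well. In the E9.5 to P3 experiment the matched gene ratio ran from 71.8 to 74.5% over the 5 wells at E9.5, from 60.6 to 62.7% at E10.5 and from 33.7 to 41.7% at E11.5. In the E10.5 to P4 experiment it ran from 50.8 to 52.3%, from 46.4 to 49.5% and from 31.2 to 38.3% over the 4 wells at E10.5, E11.5 and E12.5. Of the 12 steps (4 stage pairs and 3 measures), 12 fell and 11 had no overlap between wells. The exception was the C57BL/6 mitochondrial percent from E10.5 to E11.5, where the wells reached down to 1.96% at E10.5 and up to 1.97% at E11.5.

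The cells of lowest gene number lie at a limit of the authors' filter, which kept cells with at least 1000 detected genes. Cells with under 1200 genes were 0 of 89 at E9.5, 1 of 162 at E10.5 and 42 of 115 at E11.5 in CD1, and 11 of 127, 20 of 110, 29 of 59 and 10 of 15 from E10.5 to E13.5 in C57BL/6. Over all stages they were 11.52% of CD1 and 23.4% of C57BL/6 blood cells, against 0.954% and 1.33% of the other cells. The blood cells with the fewest genes had 1005 and 1000. The number of blood cells under the floor was not analysed here, so the blood shares and medians of all stages count only the cells above it. In C57BL/6, cells near the floor were already present at E10.5 and E11.5. The part of the floor in the fall of the share was not tested. The steps described above also held among cells with at least 1200 genes, where 12 of 12 fell with no overlap between zones.

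Blood cells from E13.5 on, with postnatal cells included, had unlike medians in the strains, which also differed in their mix of stages and wells. Postnatal cells were 62 of the 119 in CD1 and 9 of the 33 in C57BL/6, and 64 of the CD1 cells came from the 25k well. The medians over this range are therefore no comparison of strains. The embryonic cells of this range, 57 in CD1 and 24 in C57BL/6, were not summarised as a group of their own. The few C57BL/6 cells from E13.5 on had a median matched gene ratio of 41.2% (33 cells), a mitochondrial percent of 0.522% against 6.203% in the other cells, and 17 had under 1200 genes. Their 9 postnatal cells had 2.38% mitochondrial UMIs, a ratio of 46.8% and 1 cell under 1200 genes, and the 62 postnatal CD1 cells had 2.72% and a ratio of 63.3%. The 119 CD1 cells from E13.5 on had a median ratio of 63.9%, 3.97% mitochondrial UMIs against 9.07% in the other cells, and a wide spread. At the 4 CD1 stages from E12.5 to P0 with at least 10 blood cells the median mitochondrial percent was 11.3% (E12.5), 8.15% (E15.5), 4.34% (E18) and 7.82% (P0), and at P2 it was 2.26%. The matched gene ratio at these stages was 52.9%, 60.9%, 78.3%, 63.9% and 56.0%. At E12.5, E15.5, E18 and P0 blood was not the group with the lowest mitochondrial percent, while at E9.5, E10.5, E11.5 and P2 and at all 4 C57BL/6 stages it was.

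**Figure D4:**
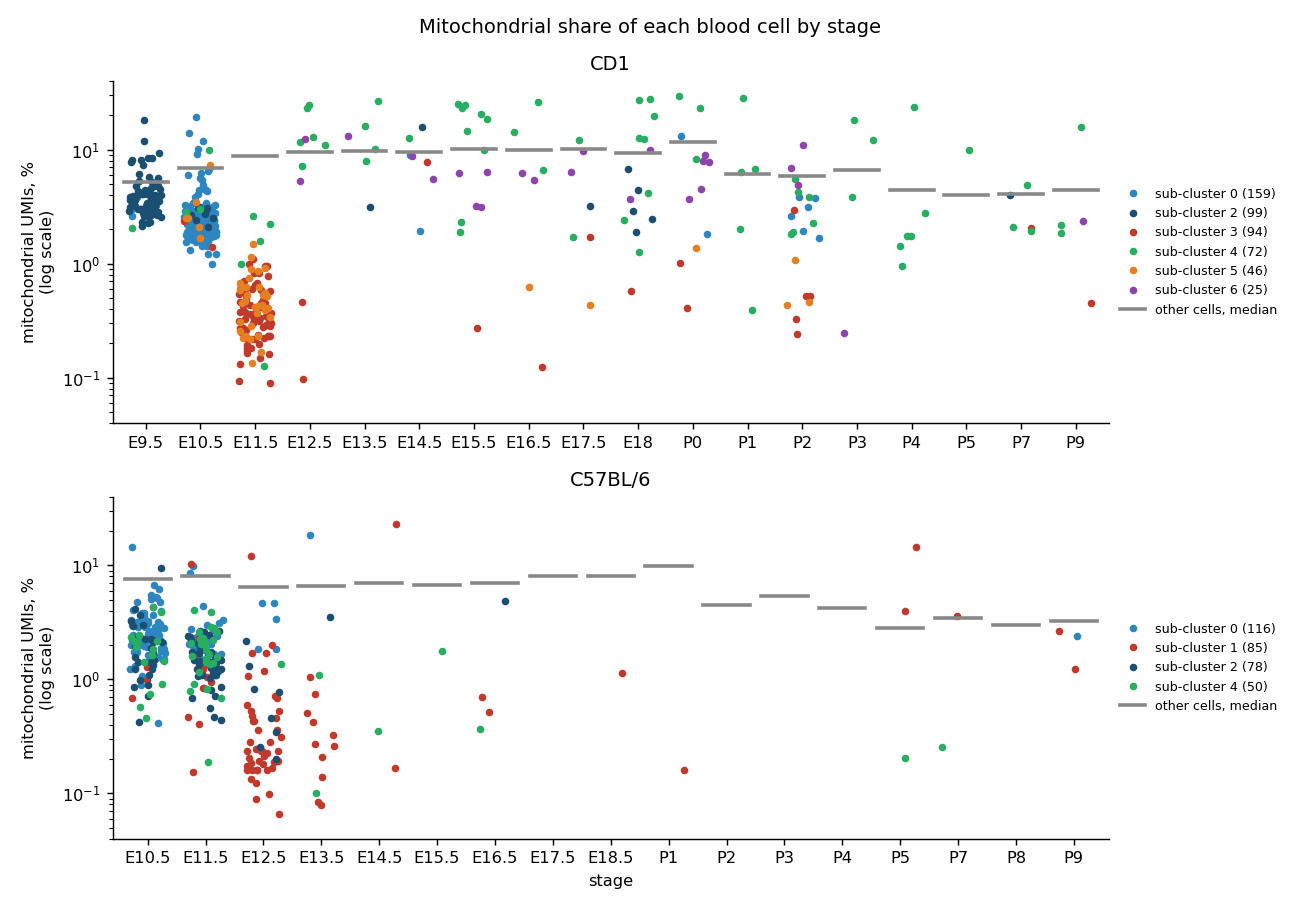
Mitochondrial percent (log scale) of each of the 824 blood cells by stage, coloured by the authors' sub-cluster within each strain (number of cells in brackets; the numbers are not matched between strains), with a grey line for the median of the other cells. The CD1 cells of E11.5 and the C57BL/6 cells of E12.5 and E13.5 lie mostly under 1%, and most later CD1 cells of sub-clusters 4 and 6 lie above it.

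Over the whole range of stages neither measure moved in 1 direction. In CD1 (8 stages) rho with stage was 0 for the matched gene ratio (exact permutation p = 1), 0.143 for the mitochondrial percent (p = 0.752) and -0.0952 for the mitochondrial percent of blood minus other cells (p = 0.840), and r was 0.0499, 0.203 and -0.0516 (exact permutation p = 0.906, 0.627 and 0.910). With the end stages dropped, r was 0.555, 0.467 and 0.147. Adjusted p-values of rho were 0.960 or above. In C57BL/6 only 4 stages had at least 10 blood cells, where the smallest exact p is 0.0833, and no correlation is given. The matched gene ratio of the 4 early CD1 stages minus that of P0 and P2 was -3.85 points (exact permutation p = 0.800, smallest possible 0.0667). Over the 3 stages that both strains share, CD1 minus C57BL/6 was 6.25 ± 16.8 points for the ratio and 3.34 ± 6.69 points for the mitochondrial percent (exact sign flip test p = 0.750 for both, smallest possible 0.250).

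Several of the authors' CD1 sub-clusters were each filled mainly by a single stage, and those of C57BL/6 were more mixed. In CD1, sub-cluster 2 (99 cells) held 81 cells of E9.5, sub-cluster 0 (159) held 142 of E10.5, and sub-clusters 3 (94) and 5 (46) held 76 and 34 of E11.5. Sub-clusters 4 (72) and 6 (25) held 88 of the 129 CD1 blood cells from E12.5 on (68.2%) and 9 of the 366 before. Sub-cluster 4 was present at all 18 stages, with 6.92% mitochondrial UMIs (quartiles 2.18 to 15.9%), 5.16% ribosomal protein UMIs and a matched gene ratio of 62.7%. Sub-cluster 6 was found from E12.5 on, with a ratio of 82.4%, 6.21% mitochondrial UMIs and a median doublet score of 0.292, against 0.0598 in all CD1 blood cells and 0.208 in the other CD1 cells. Sub-cluster 3 had a ratio of 33.5% and 0.376% mitochondrial UMIs, and 16 of its cells came from E12.5 or later. In C57BL/6, sub-cluster 1 (85 cells, 45 of E12.5) had a ratio of 32.9% and 0.428% mitochondrial UMIs, and sub-clusters 0 (116, 79 of E10.5), 2 (78, 40 of E11.5) and 4 (50, 26 of E11.5) had ratios of 54.5%, 49.6% and 45.3%. The C57BL/6 blood cells of E11.5 lay in sub-clusters 0 (30), 1 (14), 2 (40) and 4 (26). Sub-clusters were formed on the genes of these cells, and their values are given with no test.

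The later CD1 blood cells were unevenly spread over the wells. The 5 wells of the E9.5 to P3 experiment received the same mixed cells at loads aimed at 5k (3 wells), 10k and 25k cells. To E11.5 the share of blood cells was 7.79% in the 25k well (137 of 1758, exact 95% interval 6.58 to 9.15%) and 9.87% in the other 4 (229 of 2319, 8.69 to 11.2%). From E12.5 on it was 0.990% in the 25k well (70 of 7069, 0.773 to 1.25%), 0.386% in the 10k well (14 of 3625, 0.211 to 0.647%) and 0.0472 to 0.125% in the 5k wells, which held 5 blood cells together. The 25k well thus held 78.7% of these later blood cells and 44.1% of the cells. The 4 C57BL/6 wells of the E10.5 to P4 experiment ran from 0.262 to 0.525% from E12.5 on. These values include E12.5 itself, where the pooled C57BL/6 share was still 3.50%. Counted from E13.5 on, the 4 wells ran from 0.0534 to 0.184%. Over that range the CD1 share was 1.02% in the 25k well, 0.372% in the 10k well and 0 to 0.137% in the 5k wells. The same stage was also run in different CD1 experiments. At P2, blood cells were 17 of 575 cells (2.96%, 1.73 to 4.69%) in the E9.5 to P3 experiment and 6 of 1218 (0.493%, 0.181 to 1.07%) in the P2 to P9 experiment, with intervals that do not overlap. At P1 they were 4 of 663 (0.603%, 0.165 to 1.54%) and 1 of 578 (0.173%, 0.00438 to 0.960%), with intervals that do. The median doublet score of the CD1 blood cells was 0.0549 to E11.5 and 0.110 from E12.5 on, under the 0.366 and 0.190 of the other cells. Among the 10% of cells of each well with the highest score were 3 of the 366 CD1 blood cells to E11.5 (0.820%) and 20 of the 129 from E12.5 on (15.504%, against 8.44% of the other cells of these stages), 16 of them in the 25k well, and none of the 329 C57BL/6 blood cells. The part of the load and of doublets in the later CD1 shares and profiles was not tested, and without gene values it could not be checked that each of these later cells is a blood cell.

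**Figure D5:**
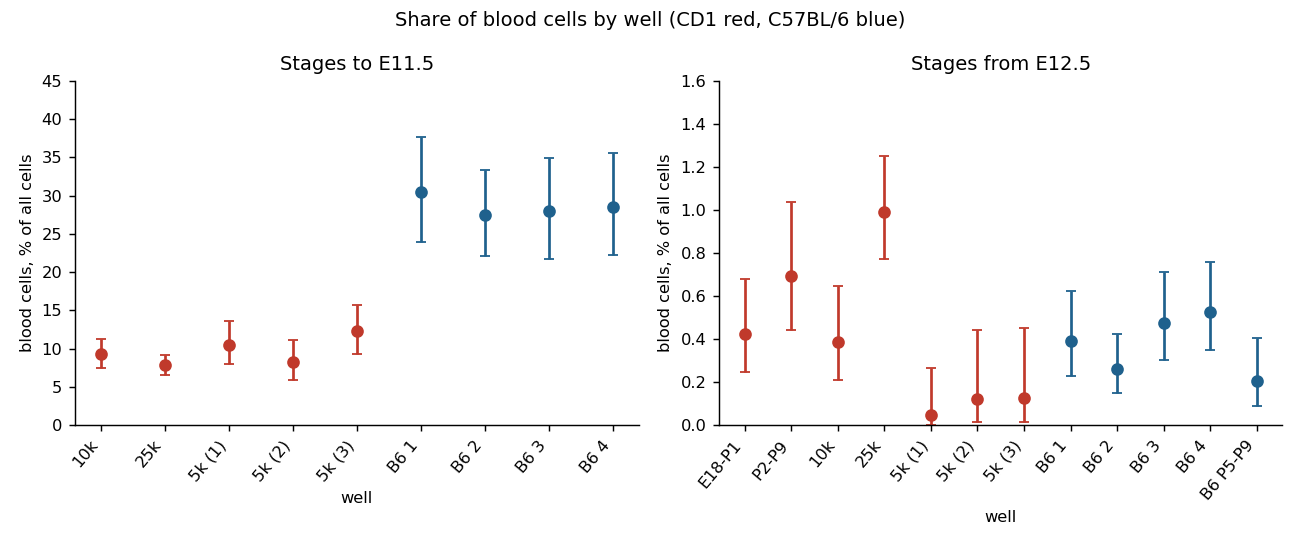
Blood cells as percent of all cells of each well (vertical axes) over the stages to E11.5 (left) and from E12.5 on (right), with exact 95% intervals. CD1 wells are red and C57BL/6 wells blue, named by the number of cells aimed at (5k, 10k, 25k) or by their stages. The CD1 wells run from 7.79 to 12.3% on the left, and on the right the 25k well is highest at 0.990%.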

How the data were processed

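MULTI-seq droplet libraries (3' chemistry) were processed by the authors with Cell Ranger 3.1.0 on GRCm38.p4. Cells were assigned to stage and zone with deMULTIplex, and doublets were taken out by their barcodes and their scds score. Kept cells had at least 2000 UMIs, 1000 to 8000 detected genes and at most 30% mitochondrial UMIs. They integrated the wells with Harmony and annotated clusters. The UMI count and the number of detected genes (a count) of each cell were deposited by the authors without normalization. The mitochondrial and ribosomal protein percent and the doublet score were deposited as computed by the authors. Of the columns of both tables, 94 were not used. The tables of mutant hearts were not used here. Some sub-clusters of blood cells that the authors removed were not analysed here.

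The share of a stage is the mean of the shares of its zones. Medians were taken at stages with at least 10 blood cells. The matched gene ratio needed at least 10 reference cells. Relations with stage used 100000 resamples, or all orders under 10 stages; contrasts used exact tests, all two-sided; p-values were adjusted by Benjamini-Hochberg within each family at a threshold of 0.05. Intervals are exact Clopper-Pearson at 95%, also for a count of 0. Steps between early stages used zones with at least 5 blood cells. No gene was named for its values, since none was used. Scripts in Python 3.11.15 (numpy 2.4.6, scipy 1.17.1, pandas 2.3.3) were tested on simulated data. Alternatives were pooled zones, larger samples, other denominators, stricter cell and doublet filters, other reference cells and each experiment left out. The cells, measures and comparisons were chosen with earlier results of these data known. Where nothing says that samples come from separate animals, p-values measure only the spread between these samples.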

Additional observations from a re-analysis of the deposited data

Results flagged for a closer look

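Of 31 groups of 4 or 5 zones or wells, 3 held a value far from the others, where chance alone gives about 1 in 20. They were the blood share of the CD1 E11.5 left atrium (60.3%), the blood share of the C57BL/6 E12.5 right atrium (40.7%) and the mitochondrial percent of the blood cells of the C57BL/6 E10.5 right ventricle (2.39%). The change from E10.5 to E11.5 differed between CD1 and C57BL/6 by -21.2 points in the matched gene ratio, -1.40 points in the mitochondrial percent and -7.43 points in the ribosomal protein percent (exact permutation over 4 zones against 4, p = 0.0286, adjusted p = 0.0286 for each). The zones of a stage share hearts, so these p-values do not measure a spread between animals. The step was chosen after its values were seen, and strain and experiment cannot be told apart.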

How the results depend on the processing

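Of 151 alternative values, 117 kept their direction and their side of the threshold. For 10 the main rho was 0 (CD1 matched gene ratio with stage, from -0.800 to 0.200 over the alternatives), 2 came out at 0, and none of these 12 passed. A further 18 changed direction, 3 kept their direction and passed the threshold that they had missed, and 1 no longer passed it. Among those that changed direction, the CD1 minus C57BL/6 share without the CD1 experiment of E9.5 to P3 (0.931 points) also passed (exact sign flip test, adjusted p = 0.0156). With at least 4000 UMIs and at most 20% mitochondrial, CD1 minus C57BL/6 was -0.828 points for the matched gene ratio and -0.502 for the mitochondrial percent, with at least 20 blood cells a stage -1.01 and -0.501, and without the 25k well (chosen after seeing the data) -0.285 and -0.395, each over 2 stages, so that no test can pass. With at least 20 blood cells a stage, rho of the mitochondrial percent with stage was -0.800 in CD1 (4 stages). With samples under 50 cells left out, the C57BL/6 atrial minus ventricular share was -0.0898 and the left minus right share 0.209 points. As a share of cells other than CMs, rho of the C57BL/6 blood share with stage was -0.650 (permutation test, adjusted p = 0.0486). Over the stages from E12.5 on (chosen after seeing the data) the CD1 blood share gave rho 0.582 and the atrial minus ventricular share -0.307 points. The early minus postnatal share in CD1 was 7.88 points with zones pooled and 37.1 as a share of cells other than CMs, both past the threshold. The causes were not tested.

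Leaving out each experiment in turn, rho of blood share with stage ran from -0.481 to 0.857 in CD1 and from -0.919 to -0.400 in C57BL/6. The atrial minus ventricular share ran from -1.41 to 9.58 and from -0.191 to 6.81 points, the left minus right share from -1.003 to 2.37 and from -1.81 to 0.266 points, the early minus postnatal share in CD1 from 19.2 to 19.2 points, and the CD1 minus C57BL/6 share from -1.93 to 1.27 points. The early minus postnatal share in CD1 no longer passed without the P2 to P9 experiment (exact permutation, adjusted p = 0.0857, 4 stages left). The matched gene ratio of early minus postnatal C57BL/6 hearts could not be computed, and neither could results that need early stages when their experiment is left out.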
